A study of Mus musculus with 24 samples.

Results

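Genes of the tumor necrosis factor (TNF) superfamily were examined in mouse livers by RNA-Seq. They were taken as all genes of the deposited count table whose symbol starts with Tnfsf (ligands) or Tnfrsf (receptors). The table held 33 such genes among 56205 gene IDs, and 29 of them were tested because 12 or more of the 24 libraries held a count, among 17913 genes tested in all. Tested were 10 of 13 ligand symbols and 19 of 20 receptor symbols. The ligand symbols include Tnfsf13os, an antisense gene, and Tnfsfm13, a gene that overlaps Tnfsf12 and Tnfsf13. Tnfsf4, Tnfsf11, Tnfsf18 and Tnfrsf17 had too few counts. The rule uses symbols and the presence of counts, and 12 of the 29 genes had no count in at least 1 control library.

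The libraries came from poly(A) RNA of whole livers of C57BL/6J mice. For 20 weeks, 12 animals ate a high-fat diet (FFD), and 12 ate its control diet. According to the methods, mice were 8 to 10 weeks old when the diet began, and the diet supplied palm oil, fructose and cholesterol. Male and female mice were used, with 6 per diet and sex by the design, but no label gives the sex of a library. No mouse carried a transgene or a deletion by the labels, and nothing says that livers were pooled. Depth was 14468418 to 22112552 counts per library on the control diet and 16490817 to 21213070 on the high-fat diet. Control replicate 10 stood apart with the lowest depth and the lowest TMM scaling factor, 0.679, while the other libraries reached up to 1.341. No 2 libraries of a diet were alike within sampling noise. The labels do not name the animals, so the p-values measure the spread between these libraries. Libraries fell into sets with 2664 to 6285 Xist counts (replicates 1 to 6 of both diets) and with 0 to 3 counts (replicates 7 to 12). Ddx3y, a gene of the Y chromosome, had 0 counts in every library of the former set and 448 to 1016 in the latter. By these counts the sets match the female and the male mice of the design, which no label states. Below, the sets are called the Xist-above and the Xist-below libraries, with reference to 1000 counts.

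TNF superfamily ligands are mostly trimeric membrane proteins, and many are cut off the cell surface by proteases. They cluster their receptors, which recruit TRAF adaptors that start NF-kB and kinase signaling or, in receptors with a death domain, complexes that can activate caspases or necroptosis. In the liver, such receptors are known on hepatocytes, macrophages, stellate cells, biliary cells and lymphocytes, and they take part in inflammation, cell death and regeneration. Receptors that signal through the kinase NIK (Map3k14) release the NF-kB subunits encoded by Nfkb2 and Relb, while feedback inhibitors such as A20 (Tnfaip3) restrain the pathway.

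Promoter windows of 2 receptor genes that were higher on the high-fat diet, and of a ligand gene and an inhibitor gene of the pathway, are shown to let the reader compare genes without and with an NF-kB binding motif (kappaB) near the start. Each window holds the 250 bases before the RefSeq start on GRCm38.p6, read 5′ to 3′ on the strand of the gene, and capitals mark matches to kappaB or to the AP-1 motif TGANTCA on either strand. The windows lie at chr1:105780473-105780722 (+) for Tnfrsf11a, chr17:23677450-23677699 (-) for Tnfrsf12a, chr17:35194257-35194506 (+) for Ltb and chr17:45555450-45555699 (+) for Nfkbie.
Tnfrsf11a: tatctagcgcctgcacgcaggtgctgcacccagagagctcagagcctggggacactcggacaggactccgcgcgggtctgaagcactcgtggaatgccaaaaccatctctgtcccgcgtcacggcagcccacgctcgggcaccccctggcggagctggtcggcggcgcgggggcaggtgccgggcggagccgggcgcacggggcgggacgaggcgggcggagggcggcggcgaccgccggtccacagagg
Tnfrsf12a: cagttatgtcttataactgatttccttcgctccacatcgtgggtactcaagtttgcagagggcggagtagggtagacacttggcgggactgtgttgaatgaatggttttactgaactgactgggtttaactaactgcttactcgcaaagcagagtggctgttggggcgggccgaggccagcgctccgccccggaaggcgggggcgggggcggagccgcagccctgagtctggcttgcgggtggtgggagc
Ltb: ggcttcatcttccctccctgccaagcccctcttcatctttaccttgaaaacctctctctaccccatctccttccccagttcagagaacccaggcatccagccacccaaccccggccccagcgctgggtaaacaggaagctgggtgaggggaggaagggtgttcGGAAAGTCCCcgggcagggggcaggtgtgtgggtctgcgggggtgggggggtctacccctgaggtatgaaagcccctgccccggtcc
Nfkbie: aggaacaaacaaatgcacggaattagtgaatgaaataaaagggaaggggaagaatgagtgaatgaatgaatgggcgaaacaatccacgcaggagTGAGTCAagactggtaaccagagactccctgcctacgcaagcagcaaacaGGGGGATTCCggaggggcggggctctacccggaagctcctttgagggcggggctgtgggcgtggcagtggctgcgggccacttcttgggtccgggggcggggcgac
The Ltb window has a kappaB match at -87 to -78 from the start. The Nfkbie window has a kappaB match at -106 to -97 and an AP-1 match at -156 to -150. Neither receptor window has a match.

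Over all genes, 2372 (13.2%) were called higher and 894 (4.99%) lower on the high-fat diet. A call needed an adjusted p no higher than 0.01 and a log2 change of more than 0.5 in size (edgeR quasi-likelihood test, Benjamini-Hochberg adjustment over 17913 genes). Of the 29 TNF superfamily genes, 11 were called higher and 0 lower, and 0 had a negative change even at an unadjusted p under 0.05. The log2 fold change was above 0 in 28 of 29, against 47.2% of all genes, and its median was 0.85, against -0.03 over all genes. The genes called were Tnfsf9, Tnfsf12, Tnfsf13b and Tnfsfm13 among the ligand symbols, of which Tnfsf12 and Tnfsfm13 overlap. Among the receptor symbols they were Tnfrsf10b, Tnfrsf11a, Tnfrsf12a, Tnfrsf13b, Tnfrsf19, Tnfrsf21 and Tnfrsf23. In none of the 29 did every high-fat library lie above every control library, which 1.48% of all genes did. With library totals in place of TMM scaling, the median over all genes rose to 0.26, 17 of the 29 were called higher and 0 lower, and 21.4% of all genes were called higher and 1.26% lower.

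**Figure D1:**
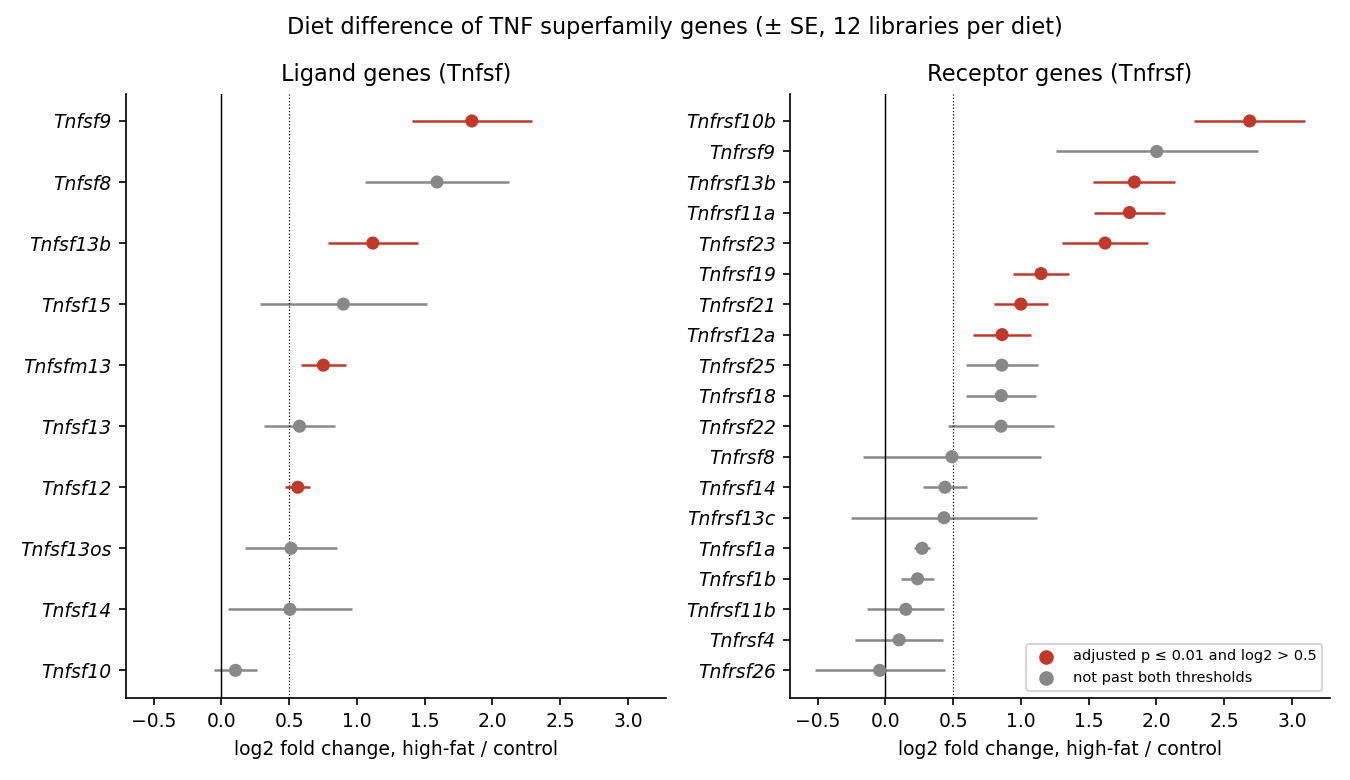
Log2 fold change of the high-fat over the control diet for the genes tested, 10 with ligand and 19 with receptor symbols. Points show the edgeR estimate and bars ± SE, with 12 libraries per diet. Red genes passed both thresholds, and the dotted line marks the fold threshold of 0.5. Estimates ran from -0.04 for Tnfrsf26 to 2.69 for Tnfrsf10b.

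Levels spanned a wide range. Per kb of annotated exons, Tnfrsf1a, the main TNF receptor of most cells, had the highest mean level, at 36.0 CPM per kb on the control diet and 43.5 on the high-fat diet. Tnfrsf1b followed with 8.81 and 10.4, Tnfsf12 with 8.49 and 12.5, and Tnfrsf12a with 4.50 and 8.14. Most genes that were called lay far lower. Tnfrsf10b, Tnfsf9 and Tnfrsf23 had at most 0.0589 CPM per kb on the control diet and 0.131 to 0.229 on the high-fat diet. In Tnfsf9, Tnfsf8 and Tnfrsf8 all 12 control libraries had at most 3 counts, and their fold changes rest on few reads. In whole tissue, fewer cells of a type and less RNA per cell cannot be told apart.

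**Figure D2:**
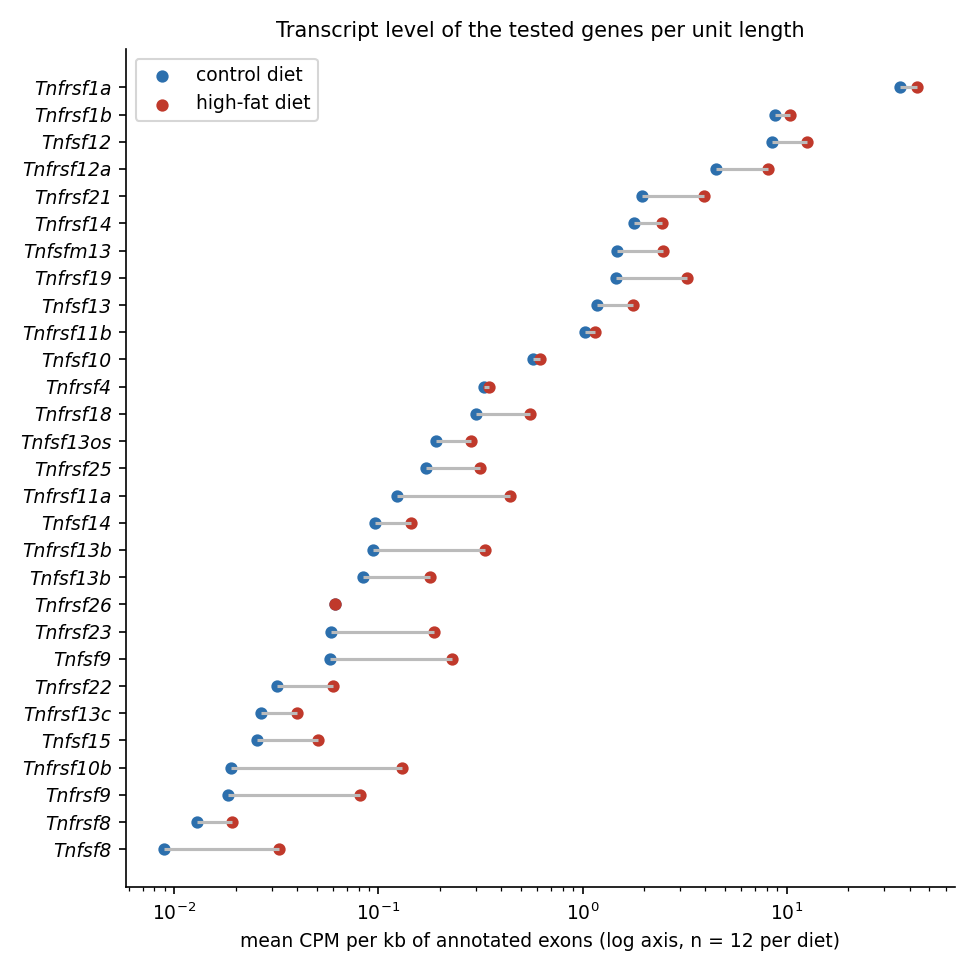
Mean TMM-scaled CPM per kb of annotated exons for the 29 tested genes on each diet, 12 libraries per diet, on a log axis. Levels on the control diet ran from 0.0089 for Tnfsf8 to 36.0 for Tnfrsf1a, and the red high-fat point lay to the right of the blue control point in every gene except Tnfrsf26 (0.0612 against 0.0615).

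Among the ligands, Tnfsf9, which encodes 4-1BBL, a costimulatory ligand of antigen-presenting cells (chr17:57105325-57107757), had 0 to 0.149 CPM on the control diet (median 0.0745). On the high-fat diet it had 0.0996 to 0.719 CPM (median 0.240). All but 1 of the high-fat libraries lay above the highest control library. Among them, high-fat replicates 1 and 2 had 3 counts each, the same as control replicates 1, 2 and 3, and lay above these only after scaling. The diet difference was 1.85 ± 0.44 on the log2 scale (SE, edgeR adjusted p = 0.0017). With a block for the replicate number, a pairing that no label gives, Tnfsf9 was not called (edgeR adjusted p = 0.0139). Its receptor gene Tnfrsf9 (4-1BB), which is known on activated T and NK cells, had a median of 0 CPM on the control diet and 0.173 on the high-fat diet. With an estimate of 2.0 ± 0.75 and an adjusted p of 0.0346, it was not called. Among the 24 fits that left out 1 library, it passed in the fit without control replicate 5, at 2.88.

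Tnfsf13b encodes BAFF, the survival factor of B cells (chr8:10006467-10039072). It ranged from 0.270 to 1.25 CPM around a median of 0.542 on the control diet and from 0.223 to 2.79 CPM around a median of 1.15 on the high-fat diet. Only 4 high-fat libraries lay above the highest control library, and the lowest library of all was a high-fat library. The difference of 1.12 ± 0.33 on the log2 scale had an edgeR adjusted p of 0.0096, close to the threshold, and the call held in only 6 of the 24 fits that left out 1 library (adjusted p up to 0.0221). Tnfrsf13b encodes TACI, a receptor for BAFF and APRIL (chr11:61126755-61149372). Its level was 0.0587 to 0.611 CPM around a median of 0.256 on the control diet and 0.391 to 1.65 CPM around a median of 0.876 on the high-fat diet. The top 9 high-fat libraries exceeded all control libraries, a change of 1.84 ± 0.30 on the log2 scale (adjusted p = 4.26e-05). The BAFF receptor gene Tnfrsf13c had at most 3 counts in 11 of 12 libraries of each diet, so no difference could be read from it. B cell markers were called higher in 1 of 7 (Cd22, against 13.2% of all genes). Their median log2 fold change was 0.35, with 7 of 7 above 0, against 47.2% of all genes. Summed levels were 3.46 to 13.0 CPM on the control and 5.28 to 17.7 CPM on the high-fat diet. Their sums overlapped in the Xist-above libraries (medians of 9.84 on the control and 8.31 CPM on the high-fat diet) but not in the Xist-below libraries (3.46 to 6.12 and 9.07 to 17.7 CPM), and their part in these results was not tested.

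Tnfsf12, Tnfsf13 and Tnfsfm13 share a locus on chromosome 11. Tnfsf12 encodes TWEAK, a ligand that acts on injured epithelium and progenitor cells, Tnfsf13 encodes APRIL, and Tnfsfm13 is a read-through unit that spans both. In GENCODE M21 (GRCm38), Tnfsfm13 (chr11:69682577-69696098, minus strand) covers 9600 bases of Tnfsf12 and 2939 bases of Tnfsf13, and the antisense gene Tnfsf13os lies across 8565 bases of it. How the counting assigned reads shared by these genes is not given in the sources used here, so their values are uncertain among these genes. Tnfsf12 had 9.27 to 15.9 CPM (median 13.9) on the control diet and 14.4 to 23.6 CPM (median 18.7) on the high-fat diet. All but the lowest high-fat library lay above the highest control library. The difference was small and tight, 0.56 ± 0.09 on the log2 scale (adjusted p = 4.24e-05). Tnfsfm13 had 1.61 to 4.56 CPM (median 3.43) on the control and 3.16 to 7.64 CPM (median 5.44) on the high-fat diet, or 0.75 ± 0.17 higher on the log2 scale (adjusted p = 0.000938). In Tnfsfm13, 10 high-fat libraries exceeded the highest control library. Tnfsf13 itself was not called, with 0.58 ± 0.26 and an adjusted p of 0.0813, and the antisense Tnfsf13os had 0.51 ± 0.34 (adjusted p = 0.239).

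The receptor for TWEAK is Fn14, encoded by Tnfrsf12a (chr17:23675445-23677468), a small receptor that is induced in damaged tissue. It had 5.55 to 12.1 CPM (median 8.37) on the control diet and 5.97 to 27.5 CPM (median 16.5) on the high-fat diet. The top 8 high-fat libraries lay above all controls, and the other 4 lay within the control range. On the log2 scale the change was 0.86 ± 0.21 (edgeR adjusted p = 0.00228). All 6 Xist-below high-fat libraries, at 16.3 to 27.5 CPM, exceeded the control libraries, while the Xist-above high-fat libraries ran from 5.97 to 16.7. The ligand and the receptor of this pair were both called higher, which was also the case for Tnfsf13b and Tnfrsf13b but for no other pair among the Tnfsf and Tnfrsf symbols.

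Tnfrsf10b, the mouse receptor for TRAIL that carries a death domain (chr14:69767472-69784411), had the largest fold change of the 29 genes. On the control diet it had 0 to 0.397 CPM around a median of 0.0581, and 10 of 12 libraries had at most 3 counts. On the high-fat diet it had 0.160 to 1.61 CPM around a median of 0.662, and only 1 library had at most 3 counts. In 10 high-fat libraries the level was above the highest control library. Its change of 2.69 ± 0.41 on the log2 scale was 6.44-fold (adjusted p = 1.82e-05), and it was the only gene of the 29 called within the Xist-above libraries alone. The decoy receptor gene Tnfrsf23 (chr7:143665809-143685872) had 0 to 0.510 CPM (median 0.227) on the control diet and 0.467 to 1.17 CPM (median 0.658) on the high-fat diet, with 10 high-fat libraries above the highest control library and an increase of 1.62 ± 0.32 on the log2 scale (adjusted p = 0.000284). Its related neighbors Tnfrsf22 and Tnfrsf26 on chromosome 7 were not called, at 0.85 ± 0.39 and -0.04 ± 0.48, and reads from the related copies may be shared. Tnfsf10, the gene for TRAIL, had 1.43 to 4.16 CPM on the control and 2.11 to 4.75 CPM on the high-fat diet. Its difference of 0.10 ± 0.16 had an adjusted p of 0.636.

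Tnfrsf11a encodes RANK, the receptor of RANKL, known from osteoclasts and also on myeloid cells (chr1:105780718-105847981). Its level was 0.102 to 1.59 CPM (median 0.656) on the control diet and 1.44 to 4.42 CPM (median 2.62) on the high-fat diet. Of the high-fat libraries, 11 lay above the highest control library, and 10 control libraries lay below the lowest high-fat library. The increase was 3.49-fold, or 1.80 ± 0.26 on the log2 scale, and its adjusted p of 9.59e-06 was the smallest of the 29 genes. The gene for RANKL, Tnfsf11, was below the count filter with 9 counts in all 24 libraries together. Tnfrsf11b, which encodes osteoprotegerin, the soluble decoy of RANKL, had 1.51 to 4.92 CPM on the control and 0.254 to 6.24 CPM on the high-fat diet, with no call (0.15 ± 0.28, adjusted p = 0.705).

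Tnfrsf19 (TROY) and Tnfrsf21 (death receptor 6) have no partner among the Tnfsf ligands tested here. Tnfrsf19 (chr14:60963875-61046490) had 1.64 to 13.4 CPM (median 6.88) on the control diet and 7.68 to 21.1 CPM (median 13.9) on the high-fat diet, with 9 high-fat libraries above the highest control library. It rose by 1.15 ± 0.21 on the log2 scale (adjusted p = 0.000131). Tnfrsf21 (chr17:43016555-43089189) had 1.83 to 13.9 CPM (median 7.65) on the control diet and 12.3 to 23.4 CPM (median 15.2) on the high-fat diet. All but 1 of the control libraries lay below the lowest high-fat library, and the lowest control library was replicate 10. It rose by 1.0 ± 0.20 on the log2 scale (adjusted p = 0.000318).

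**Figure D3:**
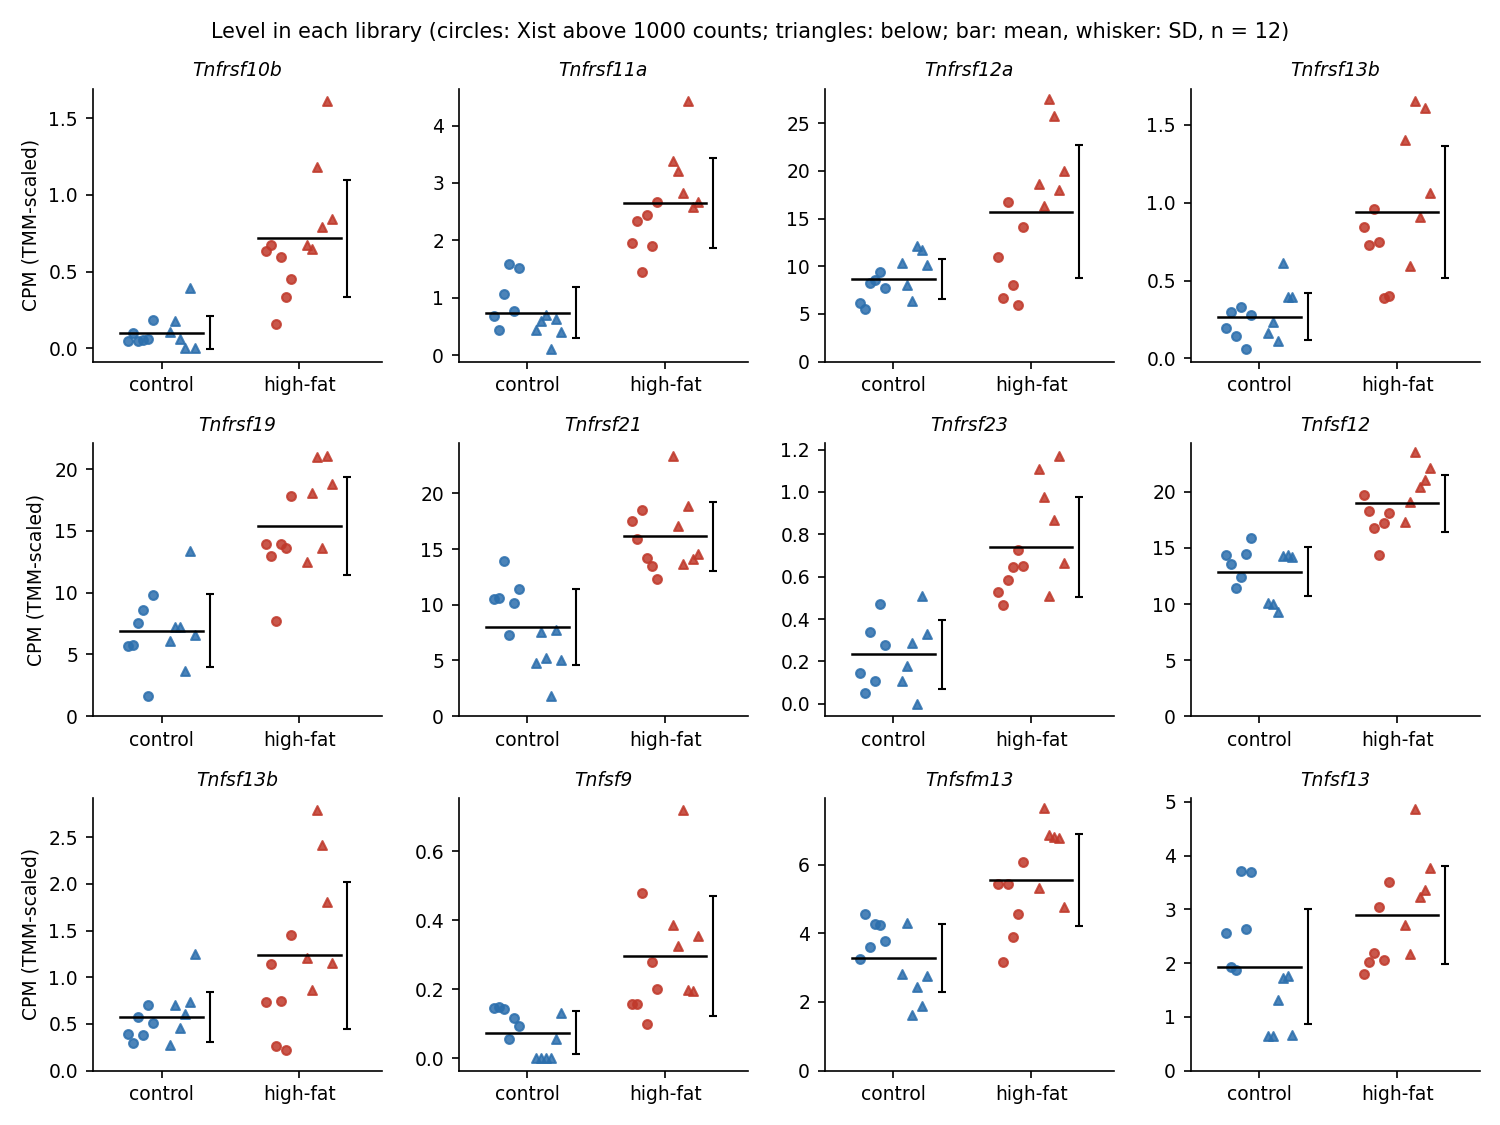
TMM-scaled CPM in each of the 24 libraries for the 11 genes called higher and for Tnfsf13, with circles for Xist-above and triangles for Xist-below libraries, a bar at the mean and a whisker for the SD, 12 libraries per diet. Each panel has its own vertical axis. In all 11 called genes the highest high-fat library was a Xist-below library and the lowest a Xist-above library. The share of all genes with this pattern was not computed.

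Neither receptor gene for TNF itself was called over all 24 libraries with TMM scaling. With library totals, where 21.4% of all genes were called higher, both were called. The log2 fold changes were then 0.56 for Tnfrsf1a and 0.51 for Tnfrsf1b (edgeR adjusted p = 8.27e-06 and 0.00556). The values that follow are those with TMM. Tnfrsf1a had 79.1 to 107 CPM on the control diet and 106 to 133 CPM on the high-fat diet, and 9 high-fat libraries exceeded the highest control library. Its change of 0.27 ± 0.06 on the log2 scale passed the test (adjusted p = 0.000655) but not the fold threshold. Tnfrsf1b, which is known mainly on immune and endothelial cells, had 16.9 to 55.0 CPM on the control diet and 33.5 to 44.0 CPM on the high-fat diet, with 0.24 ± 0.12 (adjusted p = 0.114). Within the Xist-below libraries Tnfrsf1b passed both thresholds, with 28.3 ± 6.31 CPM on the control and 40.6 ± 3.24 CPM on the high-fat diet (SD, n = 6 each; 0.53 ± 0.14, edgeR adjusted p = 0.00885), while the value in the Xist-above libraries was 0.00 ± 0.14, and the interaction had an adjusted p of 0.112. Tnf, their ligand gene, rose from a median of 0.208 CPM (0 to 0.345) to 0.833 CPM (0.335 to 1.86), with 10 high-fat libraries above the highest control library and a change of 2.09 ± 0.34 on the log2 scale (adjusted p = 3.43e-05).

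The remaining genes are known mainly for costimulation of lymphocytes. Tnfrsf18 (GITR, known on regulatory T cells) and Tnfrsf25 (death receptor 3) had log2 fold changes of 0.85 ± 0.26 and 0.86 ± 0.26 with adjusted p-values of 0.0106 and 0.0117, just above the threshold. Tnfrsf18 was called with DESeq2 (adjusted p = 0.00228), limma-voom (0.00456), RLE factors (0.00924), library totals (0.00156) and the Xist set as a covariate (0.00833), and in 5 of the 24 fits that left out 1 library. Tnfrsf25 was called with DESeq2 (adjusted p = 0.00516), library totals (0.00117) and the covariate (0.00869), but not with limma-voom or RLE factors, and in 3 of those 24 fits. Tnfrsf4 (OX40) had 0.10 ± 0.32 (adjusted p = 0.828), and Tnfrsf14 (HVEM), at 2.56 ± 0.857 CPM on the control and 3.50 ± 0.463 CPM on the high-fat diet (SD, n = 12), had 0.44 ± 0.16 (edgeR adjusted p = 0.0346). Of their ligand genes, Tnfsf14 (LIGHT) had 0.51 ± 0.46 (adjusted p = 0.400), Tnfsf15 (TL1A) 0.90 ± 0.62 (adjusted p = 0.254) and Tnfsf8 (CD30L) 1.59 ± 0.53 with an adjusted p of 0.0199. Tnfsf8 passed without high-fat replicate 1, at 1.71, or without control replicate 3, at 2.02. Its receptor gene Tnfrsf8 had at most 3 counts in 12 control and 11 high-fat libraries, so no difference could be read from it. T cell markers were called higher in 1 of 10 (Cd5), with 2.85 to 13.3 CPM in sum on the control and 4.24 to 13.4 CPM on the high-fat diet. Of the regulatory T cell markers 0 of 3 were called, with sums of 0 to 0.817 and 0.448 to 1.61 CPM. Of the NK cell markers 1 of 7 was called (Eomes), with sums of 1.18 to 7.75 and 3.43 to 6.78 CPM, which did not overlap in the Xist-below libraries (1.18 to 2.3 and 4.61 to 6.78 CPM). For the T and NK cell lists these counts are near the 13.2% called higher over all genes. Median log2 fold changes were 0.69 in the T cell, 1.47 in the regulatory T cell and 0.52 in the NK cell list. Above 0 were 9 of 10, 3 of 3 and 5 of 7, against 47.2% of all genes. What part these cells had in the results was not tested.

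A list of 15 ligands and receptors of the family with other symbols, of which 13 were tested, had a median log2 fold change of 0.85. The median over all genes was -0.03. Of the 13, 7 were called higher and 0 lower, against 13.2% and 4.99% of all genes. Besides Tnf, these were Ltb (lymphotoxin beta, 1.67 ± 0.32), Eda (ectodysplasin, 0.85 ± 0.15), Cd40 (1.49 ± 0.33), the ectodysplasin receptor gene Eda2r (1.81 ± 0.33), Relt (1.04 ± 0.23) and Ngfr, the low-affinity neurotrophin receptor known on stellate cells (0.85 ± 0.15). Ltb ranged from 0.471 to 2.51 CPM on the control and from 1.48 to 15.2 CPM on the high-fat diet. Its receptor gene Ltbr, which is also a receptor for LIGHT, had 104 to 168 CPM on the control and 129 to 157 CPM on the high-fat diet, with a difference of 0.02 ± 0.07. Fas was not called either (0.18 ± 0.13), nor were Fasl (0.21 ± 0.47), Cd40lg (-0.27 ± 0.63), Cd27 (0.46 ± 0.51) and Edar (0.28 ± 0.63). Lta and Cd70 had too few counts.

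Downstream of the receptors, 5 lists with 47 tested genes had 12 called higher and 2 lower, against 13.2% and 4.99% of all genes, with a median log2 fold change of 0.08. Of 14 receptor adaptors and ubiquitin ligases, Traf1 (1.49 ± 0.23), an adaptor and a known NF-kB target, and Traf3 (0.57 ± 0.14), which holds NIK in check, were called higher. Of 7 death signaling genes, Mlkl (1.11 ± 0.13) and Ripk3 (1.06 ± 0.24), the effector and the kinase of necroptosis, were called higher, and the caspase inhibitor gene Xiap fell by 0.65 on the log2 scale (SE 0.13, adjusted p = 0.000393). Cflar, which encodes the caspase-8 inhibitor c-FLIP, had -0.46 ± 0.10 (adjusted p = 0.000566), under the fold threshold. Casp8, Bid and Diablo were not called.

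Of 12 NF-kB kinases and subunits, 3 were called higher and 1 lower, with a median log2 fold change of 0.04. Higher were Relb (1.94 ± 0.25), Nfkb2 (1.16 ± 0.14) and Map3k14 (0.95 ± 0.12), which belong to the NIK branch. Relb ranged over 1.78 to 5.35 CPM on the control diet and over 4.48 to 24.9 CPM on the high-fat diet. Chuk, for the IKK-alpha kinase that acts in the same branch, fell by 0.65 on the log2 scale (SE 0.10, adjusted p = 2.08e-05). Of 8 feedback inhibitors, Tnfaip3 (1.42 ± 0.16), Tnip1 (1.08 ± 0.15) and Nfkbie (1.03 ± 0.19) were called higher. Tnfaip3 had 2.43 to 6.46 CPM on the control and 6.77 to 15.3 CPM on the high-fat diet, with no overlap. Of 6 genes for shedding of ligands and receptors, the iRhom genes Rhbdf1 (1.29 ± 0.15) and Rhbdf2 (0.77 ± 0.11), whose products escort the TNF protease, were called higher. Rhbdf1 did not overlap either, with 8.22 to 12.9 CPM against 16.0 to 45.1 CPM. Over all genes, 13.2% were called higher and 4.99% lower, and 1.48% had every high-fat library above every control library. With library totals in place of TMM, Xiap and Chuk were no longer called.

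**Figure D4:**
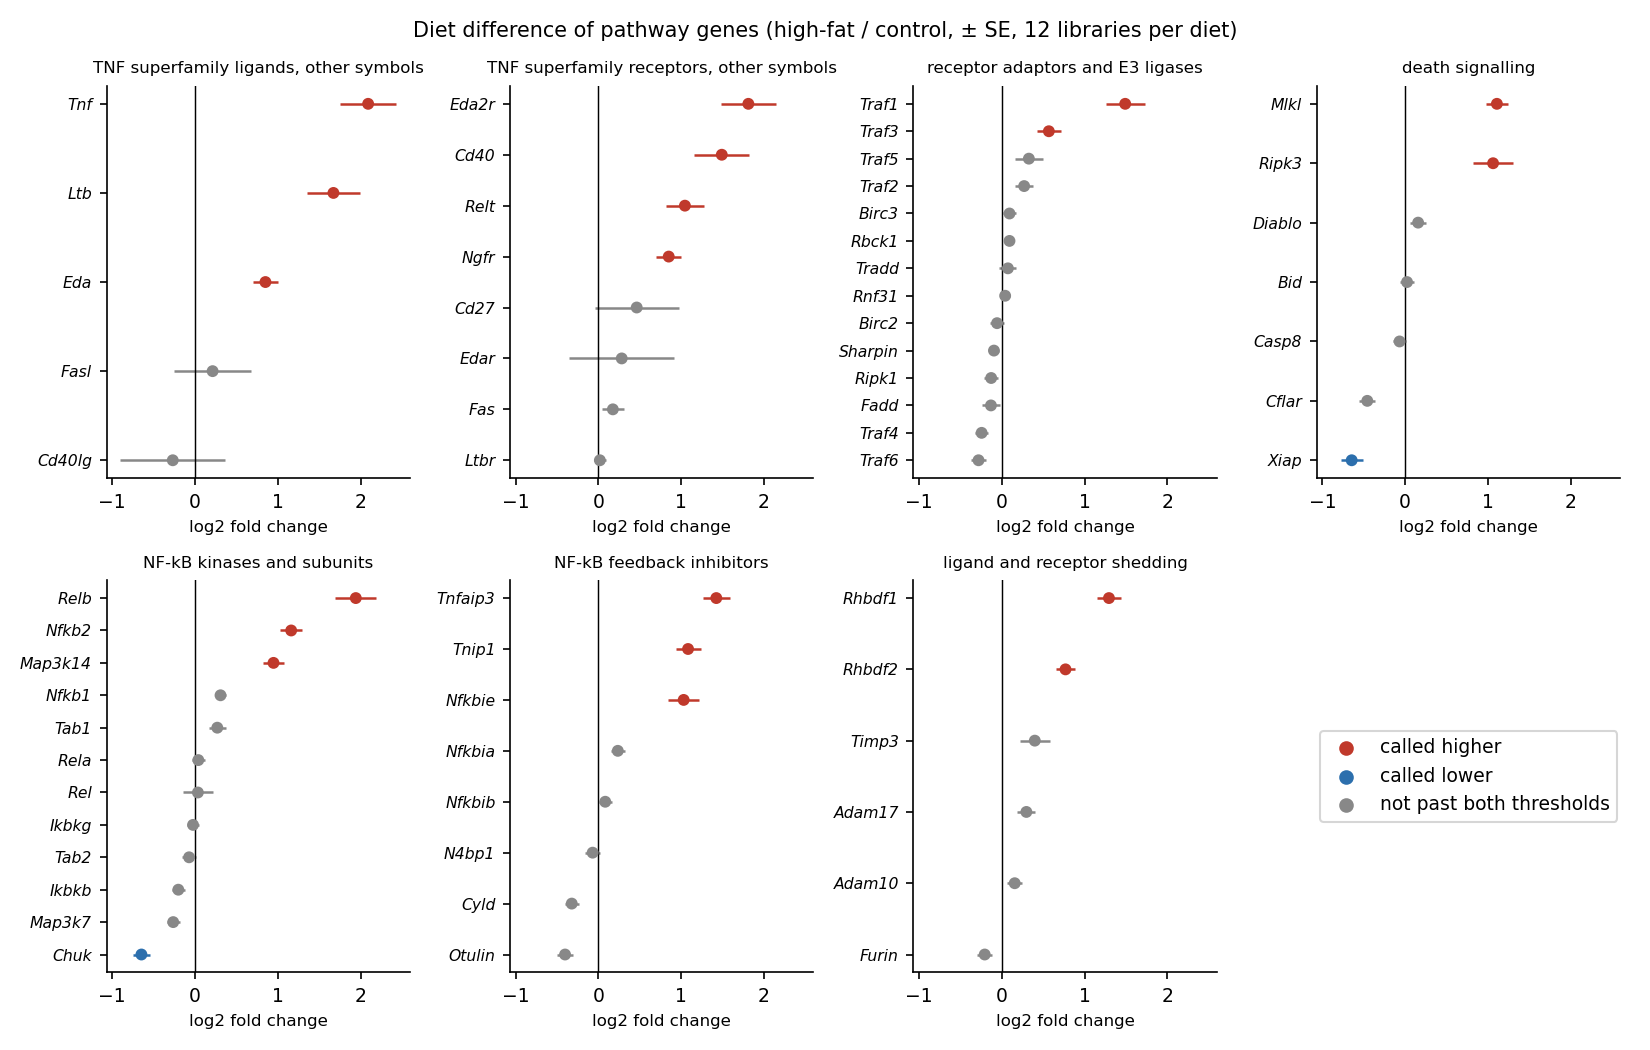
Log2 fold change of the high-fat over the control diet (± SE, 12 libraries per diet) for the tested genes of 7 pathway lists, red where called higher and blue where called lower. Red points were 3 of 5 ligands and 4 of 8 receptors under other symbols, 2 of 14 adaptors, 2 of 7 death signaling genes, 3 of 12 kinases and subunits, 3 of 8 inhibitors and 2 of 6 shedding genes, and the 2 blue points were Xiap and Chuk. Over all genes, 13.2% were called higher and 4.99% lower.

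The kappaB motif lay in 7.25% and the AP-1 motif in 6.75% of 32851 promoter windows of the RefSeq table. Of the 11 genes called higher, 8 had a window, and of their 10 windows 0 held kappaB and 1 held AP-1, that of Tnfsf13b. Among all 29 tested genes, 22 had a window, and 3 of 26 windows held kappaB, those of Tnfrsf8, Tnfrsf9 and Tnfrsf25, which were not called. Of the 12 downstream genes called higher, 9 had a window, and 7 of 12 windows held kappaB, those of Nfkb2, Nfkbie, Tnfaip3, Tnip1 and Traf3. A gene with more than 1 window counts more than once here. The downstream genes that were not called were not searched, so the share cannot be tied to the calls within these lists. A match describes these letters only.

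Differences were also computed within each library set. Within the Xist-above libraries, 6 per diet, 1 of the 29 genes was called higher and 0 lower (all genes: 2.90% and 0.882%), and within the Xist-below libraries 13 and 0 (all genes: 14.4% and 7.99%). The log2 fold change was above 0 in 24 of 29 genes in the former and in 28 of 29 in the latter. Its medians were 0.45 and 1.28, against 0.01 and -0.03 over all genes. The fold change was larger in the Xist-below libraries in 24 of 29 and in all 11 called genes. The share of all genes with a larger change there was not computed, and calls over all genes were also more frequent there. A test of the difference between the sets passed an adjusted p of 0.01 for 1 of the 29, Tnfsf13, no larger a share than the 4.06% of all genes (edgeR interaction term). At 0.05, Tnfrsf11a (adjusted p = 0.0125), Tnfrsf21 (0.0151), Tnfsfm13 (0.0203) and Tnfsf14 (0.0358) passed as well, which makes 5 of 29, against 10.2% of all genes.

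Levels by set are given for the 2 called genes with the smallest adjusted p for this difference. Tnfrsf21 had 10.7 ± 2.13 CPM in Xist-above and 5.37 ± 2.16 CPM in Xist-below control libraries, against 15.3 ± 2.38 and 17.0 ± 3.72 CPM on the high-fat diet (SD, n = 6 each). Tnfrsf11a had 1.01 ± 0.465 and 0.472 ± 0.214 CPM on the control diet and 2.12 ± 0.442 and 3.18 ± 0.681 CPM on the high-fat diet. In both genes the high-fat means of the sets lay closer together, as a ratio, than the control means. Among the genes under other symbols, Ltb differed between the sets, at 0.40 in the Xist-above and 2.81 in the Xist-below libraries (interaction adjusted p = 0.00118 by edgeR). Among the downstream genes Relb (1.11 and 2.57, adjusted p = 0.00978) and Rhbdf1 (0.84 and 1.65, adjusted p = 0.00785) did. These lists held 13 and 47 tested genes, and 4.06% of all genes passed an adjusted p of 0.01 in the same test.

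**Figure D5:**
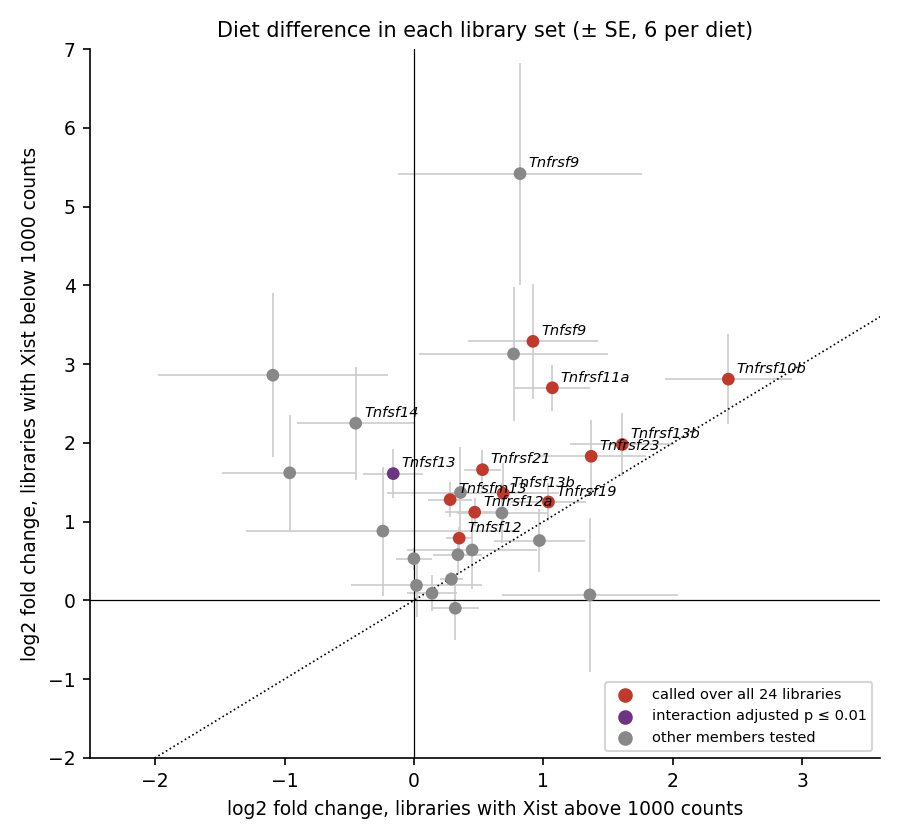
Log2 fold change of the high-fat over the control diet in the 12 Xist-above libraries (horizontal) and the 12 Xist-below libraries (vertical) for the 29 tested genes, with bars for ± SE and 6 libraries per diet in each set. The dotted line marks equal values, and 24 of 29 points lie above it, among them all 11 red points and the purple point of Tnfsf13 at -0.16 and 1.61. The same count over all genes was not made.

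Markers of several cell types moved with the diet and with the sets. All 8 markers of monocyte-derived macrophages were called higher, with sums of 100 to 343 CPM on the control and 345 to 1380 CPM on the high-fat diet, of which 345 to 580 in Xist-above and 708 to 1380 in Xist-below libraries. Of the stellate cell and myofibroblast markers 6 of 9 were called higher (sums of 166 to 490 and 408 to 1030 CPM), and of the cholangiocyte markers 4 of 5 (27.3 to 131 and 31.6 to 881 CPM). Spp1 is on both the cholangiocyte and the macrophage list, so it adds to the counts and sums of both. Hepatocyte markers were called lower in 6 of 8, with 85600 to 140000 CPM on the control and 40300 to 96300 CPM on the high-fat diet, the latter split into 71900 to 96300 in Xist-above and 40300 to 51000 in Xist-below libraries. Kupffer cell markers were called higher in 2 of 6 (114 to 491 and 179 to 816 CPM), dendritic cell markers in 1 of 6 (7.64 to 16.8 and 11.5 to 18.1 CPM), sinusoidal endothelial markers in 1 of 6 (157 to 351 and 170 to 359 CPM) and plasma cell markers in 1 of 5 (411 to 603 and 356 to 583 CPM). Over all genes 13.2% were called higher and 4.99% lower, so the last 3 counts are near that share. The median log2 fold change was 0.82 in the dendritic cell, -0.02 in the sinusoidal and -0.11 in the plasma cell list. Above 0 were 6 of 6, 3 of 6 and 1 of 5, against 47.2% of all genes. No marker was missing, since each had a count in at least 12 libraries. Their part in the differences of the TNF superfamily genes was not tested.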

How the data were processed

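For 24 mouse liver libraries, the authors deposited raw read counts by Ensembl gene ID, not normalized. Per the submitters' processing notes bcl2fastq, STAR 2.7.3a and the build mm10 were used. The program and annotation behind the mouse counts, and whether strand was used, are not given in the sources used here. Columns were tied to libraries through their titles, and labels gave the diet. Symbols, coordinates and exon lengths came from GENCODE M21 (GRCm38), which named 51745 of 56205 gene IDs. The other 4460 held 0.0723% of the counts.

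The quasi-likelihood test of edgeR 4.0.16 (R 4.3.3, TMM factors, a single term for diet) was run over the 17913 genes that had a count in 12 or more libraries, with Benjamini-Hochberg adjustment. A call needed an adjusted p no higher than 0.01 and a log2 change of more than 0.5 in size, as in the methods of the study. The SE was taken as the size of the log2 change over the root of the F statistic, and CPM are TMM-scaled. The difference between library sets was an interaction term. The procedure was tested on simulated data.

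The genes and all pathway and marker lists were chosen with earlier results of these data known. Genes called, and their partner ligand or receptor, were described in full, with up to 5 called genes per pathway list. Alternatives were DESeq2 1.42.0, limma-voom (limma 3.58.1), RLE factors or library totals in place of TMM, 2 other thresholds, 3 other count filters, a block for the replicate number, the Xist set as a covariate or alone, and each library left out. Promoter windows were RefSeq sequences of GRCm38.p6. Libraries of other models, human livers and cell cultures were not analysed here.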

Additional observations from a re-analysis of the deposited data

Results flagged for a closer look

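The diet difference of Tnfsf13, the gene for APRIL, differed between the library sets. The log2 fold change was 1.76 ± 0.39 larger in the Xist-below than in the Xist-above libraries (edgeR interaction term, adjusted p = 0.00441 over 17913 genes), with 1.61 ± 0.31 in the former and -0.16 ± 0.23 in the latter. Of the 29 genes, 1 passed an adjusted p of 0.01 in this test, no larger a share than the 4.06% of all genes. In Xist-below libraries Tnfsf13 had 0.648 to 1.76 CPM on the control diet and 2.17 to 4.86 CPM on the high-fat diet, with no overlap. The share of all genes without overlap in these libraries was not computed. In Xist-above libraries Tnfsf13 had 1.87 to 3.72 CPM and 1.79 to 3.51 CPM. Its reads may be shared with the overlapping Tnfsfm13.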

How the results depend on the processing

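With 1 library left out, the TNF superfamily genes called higher numbered 10 to 12 and those called lower 0, against 2188 to 2468 and 700 to 995 of all genes, and 19 and 2 to 3 of the pathway genes. No label ties same-numbered libraries of the diets together. The correlation of their deviations from the diet means was 0.17 to 0.601 for all numbers except 9 (-0.09), the numbers also follow the Xist sets, and 2 of 12 libraries correlated best with their own number, so a pairing was not assumed. With the replicate block 10 of the 29 genes were called higher and 0 lower (Tnfsf13b and Tnfsf9 lost, Tnfrsf18 gained), 2063 and 844 of all genes, 19 and 2 of the pathway genes, and 1 interaction. With library totals, 3827 genes were higher and 226 lower, 17 TNF superfamily genes were higher, 0 pathway genes were lower and 5 interactions passed, and with edgeR's own count filter 2 did. With at least 10 counts in every library, 1226 genes, 5 of the 9 TNF superfamily genes left and 12 pathway genes were higher. At an adjusted p of at most 0.05 with no fold threshold the higher and lower numbers were 3709 and 3388 of all genes, 17 TNF superfamily genes were higher, and 9 pathway genes were lower. With a log2 threshold of 1, 216 genes were lower, 7 TNF superfamily genes higher and 0 pathway genes lower. In the Xist-above libraries alone, 520 genes were higher and 158 lower, with 1 TNF superfamily gene and 9 pathway genes higher and 0 pathway genes lower, and in the Xist-below libraries 1431 genes and 5 pathway genes were lower. Fewer genes tested or fewer libraries set part of these numbers, and otherwise the cause was not tested. TNF superfamily genes called higher numbered 13 with DESeq2 (2639 of all genes), 11 with limma-voom (2325) and 13 with the Xist set as a covariate (2418).

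Of 1913 values over 57 results, 1806 kept their direction and their side of the thresholds. A call was lost in 49 and gained in 28, and 30 changed sign, all in genes that were not called. Each result is a gene, except for the Tnfsf13 interaction, where a call means an adjusted p of at most 0.01. In the Xist-above libraries the signs changed for Tnfrsf13c (-1.09), Tnfrsf8 (-0.24), Tnfsf13 (-0.16), Tnfsf14 (-0.45), Cd27 (-0.22), Fasl (-0.41) and Cd40lg (0.23, and 0.03 with library totals), and in the Xist-below libraries for Tnfrsf11b (-0.10, and -0.13 with limma-voom), Ltbr (-0.06) and Tnfrsf26 (1.62). Tnfrsf26 was also positive with library totals (0.24), limma-voom (0.15), the replicate block (0.16) and the Xist set as a covariate (0.13). With 1 library left out, the ranges that crossed 0 were -0.16 to 0.26 for Tnfrsf26, -0.00 to 1.05 for Tnfrsf13c, -0.01 to 0.29 for Tnfrsf4, -0.70 to 0.09 for Cd40lg, -0.03 to 0.65 for Edar and -0.01 to 0.05 for Ltbr. Depth limits the genes at or under 3 counts in most libraries of both diets, such as Tnfrsf8 and Tnfrsf13c, where no difference could be read.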
